A study of Homo sapiens with 5 samples.

Results

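The genes described here are 10 genes of blood clotting and clot removal: the fibrinogen chains FGA, FGB and FGG, the procoagulant factors F2, F5, F7 and F10, the anticoagulants SERPINC1 and PROC, and the plasminogen gene PLG. They were chosen by name: every probe whose symbol in the platform annotation is one of these genes, on all 5 arrays. The rule found 19 probes for the 10 genes, among 20041 genes with a named probe. Of the 19 probes 14 were detected on at least 1 array, and they stand for 8 of the 10 genes. No probe of F5 or PROC was detected on any array.

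The arrays hold H1 cells, an established human embryonic stem cell line, harvested on day 10 of a differentiation that began with mesoderm induction by CHIR99021, a GSK3 inhibitor. That induction was shared by all 5 arrays, the control included. Control cells stayed in basal medium, and the other cells received insulin, IWP2, LY294002 or both inhibitors between day 2 and day 5. IWP2 stops cells from secreting WNT proteins, LY294002 blocks PI3K, and insulin signals through PI3K. Every group is thus 1 array of 1 cell line, with no replicate, and no p-value, SD or test is given. In a mixed culture, fewer cells of a type and less RNA per cell cannot be told apart.

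Fibrinogen is the soluble plasma protein that thrombin turns into the fibrin mesh of a clot, and it is assembled in hepatocytes from pairs of 3 chains encoded by FGA, FGB and FGG. The clotting factors are mostly liver-made zymogens: F7 starts the cascade together with tissue factor, F10 gives the protease that converts prothrombin (F2) to thrombin, and F5 is the cofactor of that step. Antithrombin (SERPINC1) inhibits thrombin and activated F10, protein C (PROC) inactivates the cofactors, and plasminogen (PLG) gives plasmin, which dissolves fibrin. In the embryo these genes are first used by yolk sac endoderm and then by the liver.

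The control regions of the fibrinogen genes are shown because the 3 chains had closely similar differences between arrays. Each line gives the 250 bases before the RefSeq start site of 1 chain in GRCh38.p14, in the direction of transcription. They lie at chr4:154590743-154590992 on the minus strand (FGA), chr4:154562761-154563010 on the plus strand (FGB, the downstream of its 2 listed start sites) and chr4:154612657-154612906 on the minus strand (FGG). Capitals mark matches, on either strand, to 5 short motifs: TTGCNNAA (C/EBP), CAAAGTC (HNF4), TGTTTAC (FOXA), CTGGGAA (interleukin 6 response element) and TATAAA (a core promoter box). A further planned motif, GTTAAT (HNF1 half-site), was not searched. Its reverse complement, ATTAAC, stands unmarked in the FGA and FGB windows.
FGA: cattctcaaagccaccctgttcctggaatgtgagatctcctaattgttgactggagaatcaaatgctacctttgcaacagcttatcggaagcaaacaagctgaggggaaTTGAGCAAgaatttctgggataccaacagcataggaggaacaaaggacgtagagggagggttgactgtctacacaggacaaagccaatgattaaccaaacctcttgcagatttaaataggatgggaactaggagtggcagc
FGB: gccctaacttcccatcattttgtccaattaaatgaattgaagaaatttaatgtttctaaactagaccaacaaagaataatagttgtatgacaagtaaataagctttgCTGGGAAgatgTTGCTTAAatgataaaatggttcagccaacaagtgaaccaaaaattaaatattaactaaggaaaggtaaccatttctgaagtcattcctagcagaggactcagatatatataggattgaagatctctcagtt
FGG: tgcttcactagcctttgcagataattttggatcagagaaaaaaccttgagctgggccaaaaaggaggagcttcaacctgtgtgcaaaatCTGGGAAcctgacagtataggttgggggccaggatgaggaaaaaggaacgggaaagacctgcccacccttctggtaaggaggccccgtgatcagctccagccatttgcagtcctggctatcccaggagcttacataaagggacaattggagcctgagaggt

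In the FGA window the C/EBP letters start at position -141, counted back from the start site. The FGB window has the C/EBP letters at -132 and the interleukin 6 letters at -143, with no overlap between them. The FGG window holds only the interleukin 6 letters, at -161. No match to the searched HNF4 or FOXA letters, or to TATAAA, stood in these windows. Other forms of the core promoter box were not searched, so its absence cannot be read from this. Of the 9 members with a RefSeq window, 4 had the interleukin 6 letters in at least 1 window (FGB, FGG, F10 and PLG). The C/EBP letters stood in 3 (FGA, FGB and PROC). By window, 6 of 12 member windows had the interleukin 6 letters, against 9.15% of all 35116 windows of the same length. For C/EBP this was 4 of 12, against 9.05%. FGB, PLG and PROC have more than 1 window, and those of FGB and of PLG overlap. A match describes the letters and is not shown to be a bound site.

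The values below are normalized log2 intensities, where 1 unit is a 2-fold difference. A probe counted as detected where its detection p-value was under 0.01. The lowest detected signal lay between 5.27 (IWP2 array) and 5.49 (LY294002 array), so a value near 5 or below is background. Levels of different probes do not rank transcripts, since each probe has its own brightness. The LY294002 array was the dimmest, with a median raw intensity of 107 against 114 to 118 on the other 4 arrays.

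The fibrinogen chains were bright with insulin and in the control, lower with IWP2, lower still with LY294002 and lowest with both inhibitors. FGA read 12.80 in the control, 12.85 with insulin, 10.07 with IWP2, 7.66 with LY294002 and 6.44 with both inhibitors. As raw intensities these FGA readings were 7217 in the control, 8778, 1197, 214 and 185 in the same order. FGB read 12.37 in the control, 12.32 with insulin, 10.31 with IWP2, 7.68 with LY294002 and 6.17 with both. The order of the arrays is the same for FGA and FGB, apart from control and insulin, which lay within 0.06 of each other for either chain. FGG read 11.68 in the control, 11.77 with insulin, 9.59 with IWP2 and 6.98 with LY294002, and was not detected with both inhibitors (4.49). FGG was thus the only chain whose brightest probe reached background on any array.

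**Figure D1:**
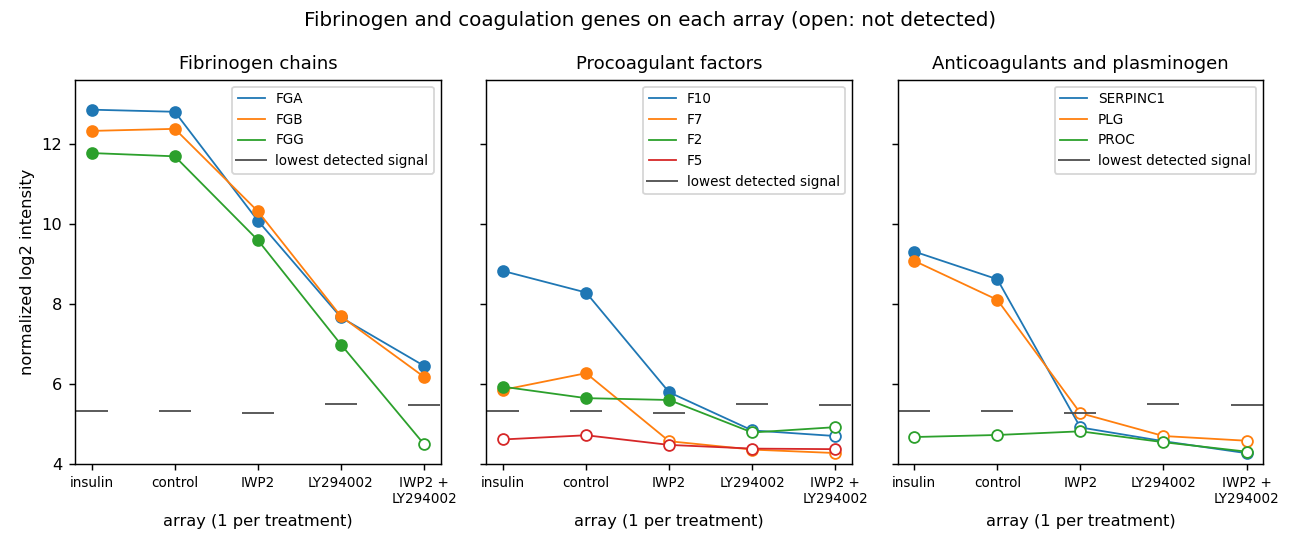
Normalized log2 intensity of the 10 genes on each of the 5 arrays (1 array per treatment), by role. Lines join the points of a gene. Filled points are detected, open points are not, and grey bars mark each array's lowest detected signal. The fibrinogen chains step down from 12.80 (FGA, control) to 6.44, while F10, SERPINC1 and PLG reach background with LY294002.

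Among the clotting proteases, F10 had the widest measured difference. F10 read 8.28 in the control, 5.78 with IWP2 and 8.82 with insulin, and was not detected with LY294002 (4.83) or with both inhibitors (4.69). Its control and insulin values stood far above background and its IWP2 value just above it. F7 read 6.26 in the control and 5.84 with insulin, and was not detected on the 3 inhibitor arrays (4.56, 4.35 and 4.26 for IWP2, LY294002 and both). The other 2 F7 probes were not detected on any array. F2, the thrombin precursor, was faint throughout, at 5.64 (control), 5.92 (insulin) and 5.59 (IWP2), and not detected with LY294002 (4.78) or both inhibitors (4.91). F2 therefore had detected signal on the IWP2 array at nearly the control level, where F7 had none. Both F2 values lay only 0.32 above their array's lowest detected signal, so a 2-fold fall of F2 could not have been measured.

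SERPINC1, the antithrombin gene, read 8.61 in the control and 9.30 with insulin. It was not detected with IWP2 (4.90), LY294002 (4.56) or both inhibitors (4.26). PLG read 8.10 in the control and 9.07 with insulin, and was not detected with IWP2 (5.26), LY294002 (4.69) or both (4.57). The PLG value with IWP2 sat at that array's detection limit, with a detection p-value of 0.0104. SERPINC1 and PLG thus split the arrays into control and insulin on one side and the 3 inhibitor arrays on the other, while F10 and the fibrinogen chains still had signal with IWP2. F5, the cofactor of activated F10, stayed between 4.36 and 4.71, and PROC between 4.30 and 4.81, so nothing can be read for either gene.

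IWP2 compared with control asks what blocking WNT secretion after mesoderm induction does. Among the 8 detected members, IWP2 values were lower by 2-fold or more in 6 and higher in 0, by a difference or by a bound. Over all 10267 genes detected on either array, 7.75% were lower and 6.87% higher by the same rule. FGA differed by -2.72 (6.61-fold lower), FGB by -2.06 (4.18-fold), FGG by -2.10 (4.28-fold) and F10 by -2.49 (5.63-fold). Where 1 of the arrays lacked detected signal, the difference is given as a bound, in which the undetected value is raised to the lowest signal detected on its array. SERPINC1 was at least 10.1-fold and PLG at least 7.10-fold lower in this sense. Without background correction the measured differences were smaller, at -2.01 for SERPINC1, -1.49 for PLG and -1.46 for F10. F7 was at least 1.99-fold lower, just short of the 2-fold line. F2 differed by -0.05, but its control signal was too near background for a 2-fold fall to be measured. The median over the 8 detected members was -2.30, beside 0.00 over all detected genes.

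LY294002 compared with control asks the same of PI3K. Again 6 of 8 members were at least 2-fold lower and 0 higher, against 10.5% of genes lower and 8.26% higher. FGA differed by -5.14 (35.3-fold lower), FGG by -4.71 (26.1-fold) and FGB by -4.69 (25.8-fold). These chains were the only members detected on both arrays. SERPINC1 was at least 8.72-fold, F10 at least 6.93-fold and PLG at least 6.11-fold lower. Without background correction their measured differences were -2.14 (SERPINC1), -1.77 (F10) and -1.68 (PLG), and that of FGG was -3.96. FGA differed by -4.07 with the mean of its detected probes. F7 (at least 1.71-fold) and F2 (at least 1.11-fold) had too little control signal above background for a 2-fold bound. The member median was -3.75, or -2.96 with undetected members at their bounds, beside -0.06 over all detected genes.

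With IWP2 and LY294002 together, 6 of 8 members were at least 2-fold lower than the control and 0 higher, against 11.9% of genes lower and 11.1% higher. FGA differed by -6.35 (81.8-fold lower) and FGB by -6.20 (73.7-fold). FGG was at least 74.8-fold lower. SERPINC1 was at least 8.88-fold, F10 at least 7.06-fold and PLG at least 6.22-fold lower. These bounds, like those with LY294002 alone, are set by each gene's control signal and the array's detection limit, so they do not order LY294002 against the double treatment. The sizes depended on the background step: without background correction the measured differences with both inhibitors were -5.34 (FGA), -5.05 (FGB), -4.99 (FGG), -2.42 (SERPINC1), -1.82 (F10) and -1.73 (PLG). With the mean of a gene's detected probes FGA differed by -5.10 and FGG by -5.69. The member median was -3.97, or -2.98 with bounds, beside -0.02 over all detected genes.

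Insulin compared with control gave 0 of 8 members past 2-fold in either direction, where 1.77% of genes were lower and 1.62% higher. The fibrinogen chains differed by 0.05 (FGA), -0.05 (FGB) and 0.08 (FGG). PLG had the widest difference at 0.97 (1.97-fold higher), followed by SERPINC1 at 0.69, F10 at 0.54 and F2 at 0.29. F7 differed by -0.42. The member median was 0.18, beside -0.0038 over all detected genes. With 1 array each, it cannot be said whether differences of this size exceed the variation between cultures. PLG passed 2-fold under other scalings, at 1.08 with 75th percentile scaling and 1.05 with cyclic loess. All 4 comparisons share the control array, and an error of it enters each of them.

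**Figure D2:**
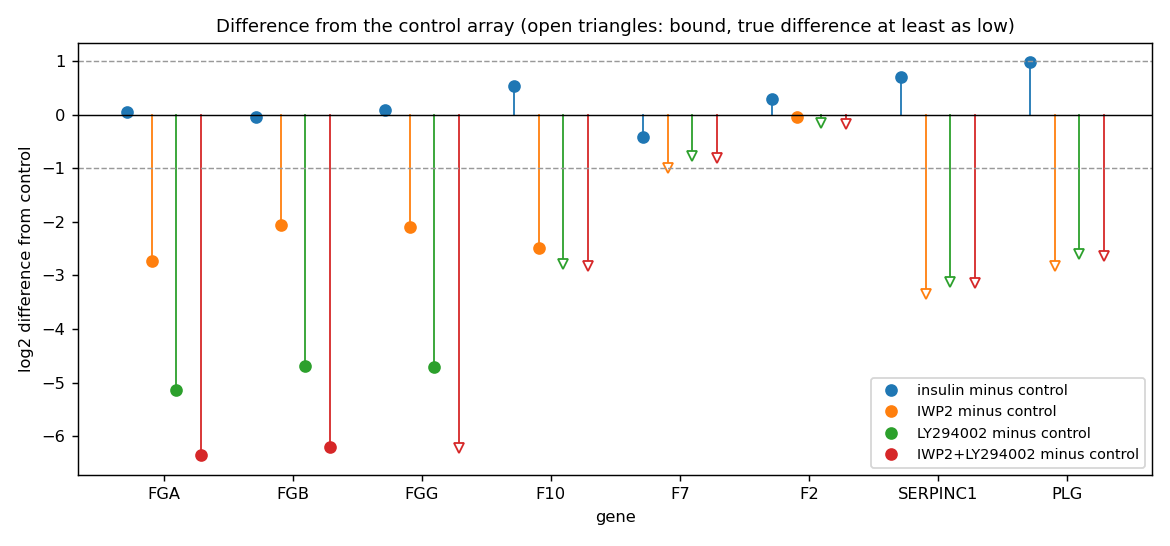
Log2 difference from the control array for the 8 detected genes under each treatment. Filled circles are differences between detected signals, open triangles are bounds, and dashed lines mark 2-fold. The chains run from near 0 with insulin to -6.35 for FGA with both inhibitors. F7 and F2 never pass the 2-fold line, and their control signals lay only 0.94 and 0.32 above the lowest detected signal.

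Set against each other, the inhibitor arrays differed by 2-fold or more in the fibrinogen chains, and no other member had enough signal there for such a bound. In all 3 of these comparisons 0 members were higher. With LY294002 compared with IWP2, FGA differed by -2.42, FGB by -2.63 and FGG by -2.61, so 3 of the 5 members detected on either array were at least 2-fold lower, where 5.58% of genes were lower and 3.77% higher. Adding LY294002 to IWP2 gave -3.63 for FGA and -4.14 for FGB, and FGG was at least 17.5-fold lower, again 3 of 5 members against 3.86% of genes lower and 2.73% higher. Adding IWP2 to LY294002 gave -1.21 for FGA and -1.51 for FGB, and FGG was at least 2.87-fold lower, 3 of 3 members against 4.55% of genes lower and 5.77% higher. This count was 2 with an offset of 50, with 75th percentile scaling and with the mean of detected probes, and 0 without background correction. F10 and F2, detected with IWP2, had only weak bounds in these comparisons (at least 1.25-fold and 1.10-fold lower with both inhibitors than with IWP2). F7, SERPINC1 and PLG were not detected on any of these 3 arrays and could not be compared.

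The control, IWP2, LY294002 and double-inhibitor arrays form a 2 by 2 layout. For FGA the LY294002 difference was -5.14 without IWP2 and -3.63 with it, so the combined difference from the control was 1.51 less than the sum of the single differences. For FGB the same values were -4.69, -4.14 and 0.55. FGG was at background with both inhibitors, and its 2 by 2 value was -0.40 as measured and 0.58 with that array at its detection limit. The median over the 3 chains was 0.55. The other members were undetected on at least 2 of the 4 arrays, and their values in this layout are set by background.

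The probes of each fibrinogen gene could be compared as separate measurements of 1 transcript pool on the same arrays. FGA had 5 probes, annotated to 2 RefSeq transcripts, and all 5 were detected in the control, at 6.92 to 12.80. FGB had 2 and FGG 3, of which 1 FGG probe was not detected on any array. All 9 detected fibrinogen probes were at least 2-fold lower than the control with IWP2, with LY294002 and with both, and 0 of 9 with insulin. Their differences with IWP2 ran from -2.72 to -1.79. With LY294002 they ran from -5.19 to -2.59, and the smaller values came from the dimmest probes, whose LY294002 signal was not detected. Over all 14 detected member probes, 12 were at least 2-fold lower on each inhibitor array and 14 had a negative difference. The remaining 2 were those of F2 and F7. Among all genes 7.75%, 10.5% and 11.9% were lower with IWP2, LY294002 and both, and no share over all probes was computed. Since 9 of the 14 probes measure the fibrinogen genes, the probe counts are not separate evidence beside the gene counts. With both inhibitors only 2 fibrinogen probes, the brightest of FGA and FGB, stayed above background.

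**Figure D3:**
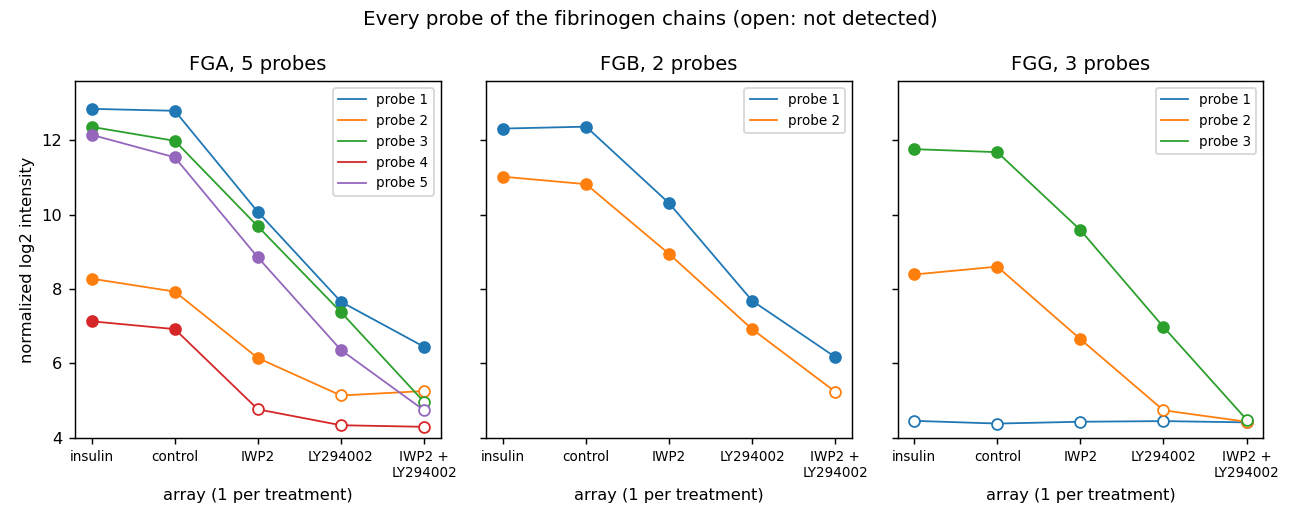
Normalized log2 intensity of every FGA, FGB and FGG probe on each array. Each line is 1 probe, and open points are not detected. The 9 detected probes are high in the control and with insulin, lower with IWP2 and lower again or at background with LY294002, and 1 FGG probe lies at background throughout.

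How alike the members were over the 5 arrays was measured as the root mean square difference of their log2 profiles, each centred on its own mean. FGA and FGB differed by 0.29, FGB and FGG by 0.41 and FGA and FGG by 0.51. F10, SERPINC1 and PLG formed a second close set, with F10 and PLG at 0.25, SERPINC1 and PLG at 0.33, and F10 and SERPINC1 at 0.50. Between these sets the closest pair was FGA and SERPINC1 at 1.01. F10, SERPINC1 and PLG were at background with LY294002 and the fibrinogen chains were not, and the part of background in these distances was not tested. Since the points share arrays and normalization, this is a description with no test.

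Among 10968 other detected genes, the profile nearest to the mean of the 3 chains was that of SERPINA1 (0.32), which encodes antitrypsin, the main protease inhibitor of plasma. VTN (vitronectin, 0.37), GSTA1 (0.40), SPINK1 (0.44) and GSTA2 (0.44) followed. VTN is an adhesive plasma protein, SPINK1 a trypsin inhibitor, and the GSTA genes encode detoxifying glutathione transferases of liver. TGFBI (0.49), DLK1 (0.49), TTR (0.52), RBP4 (0.53) and AFP (0.53) completed the 10 nearest. TTR and RBP4 carry thyroid hormone and retinol in plasma, and AFP is the fetal albumin relative. The median gene lay 2.64 away. AFP differed from the control by -1.47 with IWP2, -3.65 with LY294002 and -5.29 with both, in each case less than FGA, FGB or FGG. AFP was brighter than every chain, at 14.18 in the control, and whether such bright signals narrow a difference was not tested.

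The nearest profiles to single members were SPINK1 for FGA (0.31), VTN for FGB (0.30) and SERPINA1 for FGG (0.21). F10 lay nearest to SLC51A (0.13), a bile acid transporter subunit, and GCGR (0.14), the glucagon receptor. PLG lay nearest to EGFLAM (0.13) and SERPINC1 to SLC22A7 (0.25), an organic anion transporter of liver. F7 lay nearest to DEFB1 (0.07), an epithelial antimicrobial peptide. F2 lay nearest to GTSE1 (0.03) and EGR1 (0.03), but its whole range was small and partly background. F7, SERPINC1 and PLG were each detected on only 2 of the 5 arrays, so their distances, too, largely compare background on the inhibitor arrays. F10, SLC51A and GCGR were each detected on 3 arrays, so their distances are background in part. SPINK1 was also detected on 3 arrays, where FGA was detected on all 5.

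**Figure D4:**
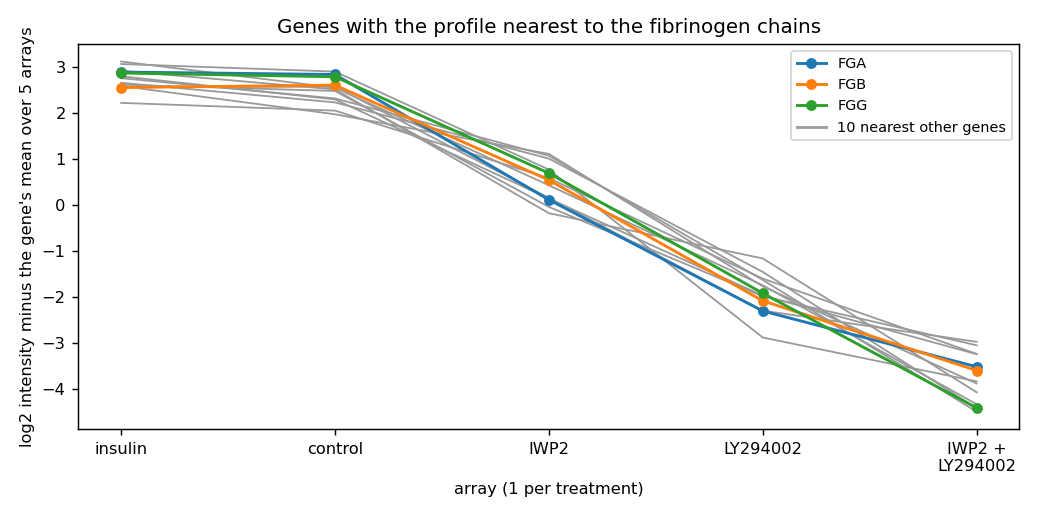
Log2 intensity minus each gene's mean over the 5 arrays, for FGA, FGB and FGG (coloured) and the 10 other genes nearest to their mean profile (grey). The grey lines lie within a root mean square difference of 0.53 of the fibrinogen mean.

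Markers of cells that could make these proteins were also lower on the inhibitor arrays. Of 12 liver and yolk sac endoderm markers on the array, 11 were detected in the control and with insulin, 10 with IWP2, 9 with LY294002 and 6 with both inhibitors. With IWP2, LY294002 and both, all 11 detected markers lay at least 2-fold under the control, and with insulin 0 did. Among all genes 7.75%, 10.5% and 11.9% were lower on these inhibitor arrays in that order, and 1.77% with insulin. The median difference of these 11 markers was -2.12 with IWP2, -3.69 with LY294002, 0.17 with insulin and -5.60 with both. The fibrinogen medians in the same order were -2.10, -4.71, 0.05 and -6.35. The summed level of the 12 markers (antilog of the log2 values) was 84942 in the control, 96573 with insulin, 26110 with IWP2, 6140 with LY294002 and 1819 with both. ALB, the hepatocyte albumin gene, was above background in the control (9.41), with insulin (9.02) and with IWP2 (7.23) only. Of the 12 cardiomyocyte markers 10 went the other way, at least 2-fold higher on each inhibitor array, and 6 were lower with insulin. Among all genes 6.87%, 8.26% and 11.1% were higher with IWP2, LY294002 and both. MYL2 was not detected on any array, and the bounds of TNNI3 stayed under 2-fold. The part of cell composition in the member differences was not tested.

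Platelets also carry fibrinogen and F5. The platelet integrin gene ITGA2B, the platelet surface gene GP9 and the granule chemokine gene PF4 were not detected on any array. Of 8 platelet markers on the array only GP1BA and PPBP were detected at all. The summed level of all 8, undetected genes included, lay between 282 and 351 over the 5 arrays.

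The wider pathway was read from lists of related genes. Their counts are to be read beside the shares over all genes detected on either array. With IWP2, LY294002, insulin and both, 7.75%, 10.5%, 1.77% and 11.9% of all genes were lower than the control. Those higher were 6.87%, 8.26%, 1.62% and 11.1%. Of the other 9 plasma factors on the array, only F12, KNG1 and VWF were detected on any array, none of them past 2-fold against the control. F12 (the contact factor) was detected with IWP2 alone (5.64), and KNG1 (kininogen) with insulin alone (5.55). VWF, which binds platelets and carries F8, was detected in the control (5.69) and with insulin (5.43). These signals were too near background for a 2-fold bound. The measured VWF differences with IWP2, LY294002 and both, where it was not detected, were -1.02, -1.36 and -1.38. F8, F9, F11, F13A1, F13B and KLKB1 had no detected probe.

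Among cell-surface and initiation genes, 3 of 6 detected members were at least 2-fold lower with IWP2, 2 with LY294002, 0 with insulin and 3 with both, and 0 higher in any comparison. Of all genes 7.75%, 10.5%, 1.77% and 11.9% were lower in the same order. TFPI, the inhibitor of the tissue factor pathway, differed by -2.04 with IWP2, -2.24 with LY294002 and -2.64 with both. Its relative TFPI2 differed by -2.04, -1.67 and -1.88. Tissue factor itself, F3, read 6.44 in the control and 6.47 with insulin and was at least 2.26-fold lower with IWP2. PROCR, the protein C receptor, differed by -1.53 with both inhibitors. The thrombin receptor gene F2R was bright on all arrays, between 13.44 and 14.01, and never past 2-fold. This group also contains genes of endothelium, whose markers had 5 of 8 detected in the control and with insulin and 2 of 8 on each inhibitor array, with summed levels of 687 and 967 against 372 to 447. Of these markers TEK was past 2-fold lower on each inhibitor array, while KDR was higher by 1.19 with IWP2 and by 1.08 with both. The part of these cells in the TFPI, F3 and PROCR differences was not tested.

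Other plasma anticoagulants did not move as 1 group. SERPIND1 (heparin cofactor) read 7.19 in the control and 6.89 with insulin, and was at least 3.79-fold, 3.26-fold and 3.32-fold lower with IWP2, LY294002 and both. SERPINA5, the protein C inhibitor, differed by -1.37, -1.69 and -1.66. PROS1, the cofactor of protein C, was higher by 1.32 with IWP2 and differed by 0.26 with LY294002. A2M, a broad protease trap, was higher by 1.33 with IWP2 and differed by -2.18 with LY294002 and 0.34 with both. In counts, 2 of 6 were lower and 2 higher with IWP2, 3 and 0 with LY294002, 0 and 0 with insulin, and 2 and 0 with both. The all-gene shares were 7.75% lower and 6.87% higher with IWP2, 10.5% and 8.26% with LY294002, and 11.9% and 11.1% with both.

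In fibrinolysis, PLAT (tissue plasminogen activator) read 8.91 in the control, 9.11 with insulin, 6.92 with IWP2 and 7.86 with LY294002, and was not detected with both (4.96, at least 11-fold lower). SERPINE2, an inhibitor of thrombin and plasminogen activators on cells, differed by -1.17, -1.75 and -2.65 with IWP2, LY294002 and both. S100A10, part of a plasminogen receptor on cells, differed by -2.65 with both inhibitors. PLGRKT, another plasminogen receptor, was 1.03 higher with LY294002. Of 8 detected genes of the list, 3 were lower with IWP2, 2 with LY294002, 0 with insulin and 4 with both. Over all genes these shares were 7.75%, 10.5%, 1.77% and 11.9%. Only 1 listed gene was higher, with LY294002, where 8.26% of all genes were.

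F2, F7, F10 and PROC need vitamin K for the carboxylation of their glutamates. GGCX, the carboxylase, read 6.43 in the control, 5.61 with IWP2 and 6.42 with insulin, and was not detected with LY294002 (5.19) or both (5.13). VKORC1, which recycles vitamin K, stayed between 10.12 and 10.96. NQO1, a quinone reductase, differed by -1.67, -2.53 and -3.40 with IWP2, LY294002 and both. LMAN1 and MCFD2, which together carry F5 and F8 out of the endoplasmic reticulum, stayed within 2-fold of the control on every array. Of the 6 vitamin K genes 1 was lower with IWP2, 1 with LY294002, 0 with insulin and 2 with both, and 0 higher. The all-gene shares lower were 7.75%, 10.5%, 1.77% and 11.9%, and counts this small do not set the list apart from them.

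Liver and endoderm transcription factors were lower in part. FOXA2, an endoderm regulator, read 10.08 in the control, 10.22 with insulin, 8.75 with IWP2 and 6.64 with LY294002, and was not detected with both (4.98). CEBPA, a hepatocyte regulator, read 9.08, 10.27, 7.82 and 6.13 in the same order and was not detected with both (4.40). CEBPA was 1.20 higher with insulin than in the control, the only gene of this list past 2-fold there. CREB3L3, a membrane-bound liver factor, read 8.79 in the control and 8.91 with insulin and was not detected on any inhibitor array. FOXA3 differed by -1.53 with IWP2 and was not detected with LY294002 or both. CEBPD did not follow this order, and differed by -1.65 with IWP2, -0.54 with LY294002 and -2.58 with both. FOXA1 and HHEX read higher than the control with IWP2, by 0.50 and 0.84, and were not detected with LY294002 or both. GATA4, shared by heart and endoderm, stayed between 7.45 and 8.15. Of 11 detected genes of the list, 5 were lower with IWP2, 6 with LY294002, 0 with insulin and 7 with both. Those higher were 1 with IWP2 and 1 with both, in each case PROX1, and 1 with insulin. Shares lower over all genes were 7.75% with IWP2, 10.5% with LY294002, 1.77% with insulin and 11.9% with both.

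Interleukin 6 drives fibrinogen in the acute phase. The receptor gene IL6R was not detected on any array, while IL6ST, its signalling partner, stayed between 9.33 and 10.11 and STAT3 between 6.13 and 7.32. The acute-phase genes CRP, SAA1 and SAA2 were not detected on any array. HPX (hemopexin) and ORM1 (orosomucoid) were detected in the control, at 9.24 and 7.68, and were lower on each inhibitor array, with differences of -2.78 (HPX) and -1.70 (ORM1) with IWP2. HP (haptoglobin) read 5.81 in the control and 5.52 with insulin and was not detected on any inhibitor array. Its control signal was too near background for a 2-fold bound. HPX and ORM1 were the only 2 of 6 detected genes past 2-fold on any inhibitor array, and 0 were past it with insulin. Beside this, 7.75% (IWP2), 10.5% (LY294002) and 11.9% (both) of all genes were lower.

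**Figure D5:**
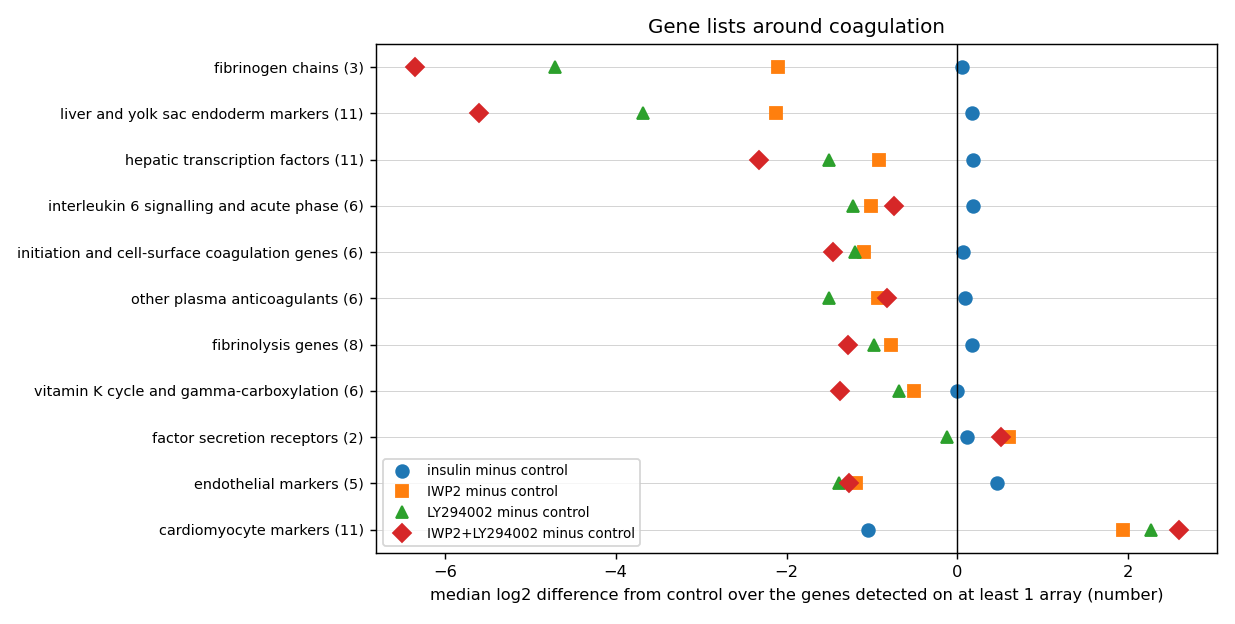
Median log2 difference from the control for each gene list, with the number of genes detected on at least 1 array in brackets. The fibrinogen chains and the liver and yolk sac markers lie farthest to the left with both inhibitors (-6.35 and -5.60), and the cardiomyocyte markers lie to the right.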

How the data were processed

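Expression was measured on 5 Illumina BeadChip arrays with biotin-labelled cRNA, per the labels' protocols. Per the file headers, the deposited table holds 47299 probes with 1 intensity and 1 detection p-value an array. The lowest intensity of each array lay above 81, so background had not been subtracted. A second deposited table holds log2 values with nearly 1 distribution on all arrays. The authors' steps for it are not stated in the labels or headers. Intensities were corrected with normexp and quantile-normalized (neqc, limma 3.58.1, R 4.3.3, offset 16). Counts and bounds were computed with pandas 2.3.3 (Python 3.11.15, numpy 2.4.6), and plots drawn with matplotlib 3.10.9. Of the probes 30106 had 1 gene symbol, 8 several and 17185 none in the platform annotation. For a gene with several probes, the one with the highest mean was used. The code was tested on simulated data.

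A gene counted as higher or lower where the log2 difference, or the bound of a gene detected on 1 of the 2 arrays, was at least 1 in size. Between 13173 and 14723 probes were detected per array, and the number of arrays limits precision. List members named come mainly from up to 4 detected on both arrays with the widest difference and those with a bound past 2-fold. Counts for the whole list stand beside them. Not every gene that meets this rule is named: PLAU, a fibrinolysis gene at least 2.13-fold lower with IWP2, is 1 example. Further list genes were named for their role after their values were seen. The members and lists were chosen with earlier results of these data known. Some listed genes are not reported here. Alternatives were the authors' table, no background correction, an offset of 50, 75th percentile scaling, cyclic loess, a detection p-value of 0.05, the mean of detected probes and no detection filter.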

Additional observations from a re-analysis of the deposited data

How the results depend on the processing

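Each comparison rests on 1 array a side, so no left-out replicate could be tried. No paired analysis was possible because no group has a second sample. The counts of lower members against the control (6 of 8 with IWP2, LY294002 and both, 0 with insulin) stayed between 6 and 7, and at 0, under the 7 alternatives run for counts. Against the control, the member median ran from -2.40 to -1.73 with IWP2, from -4.09 to -1.95 with LY294002, from -5.76 to -2.12 with both and from 0.07 to 0.30 with insulin. With both inhibitors compared with IWP2, the median of -0.89 became -2.16 in the authors' deposited table and -3.63 with undetected members at their bounds. With both compared with LY294002, the median of -0.22 became -1.18 and -1.51 under the same settings. With LY294002 compared with IWP2, the median of -0.88 became -2.42 at the bounds. Over all alternatives these 3 medians ran from -3.63 to -0.39, from -1.51 to -0.09 and from -2.42 to -0.28, with the values nearest 0 coming without background correction or, for both compared with LY294002, at an offset of 50. The bounds leave out members detected on neither array and were added after seeing the data. Without background correction 0 in place of 3 members were lower with both than with LY294002, and the 2 by 2 median of the fibrinogen chains was 1.12 in place of 0.55. F7 with both inhibitors turned from -2.00 to 0.0174 in the authors' table, where another, undetected F7 probe was the brightest. The measured F7 differences with IWP2 and LY294002 were under 2-fold there and without background correction, and with IWP2 also at an offset of 50. The share of lower among all called genes moved with 75th percentile scaling from 56.1% to 66.8% (LY294002 and control), from 52.2% to 36.6% (insulin and control), from 44.1% to 21.4% (both and LY294002) and from 59.7% to 79.7% (LY294002 and IWP2). Without background correction it moved from 58.6% to 73.6% for both compared with IWP2. Over all genes, the number at least 2-fold lower than the control went without background correction from 796 to 338 with IWP2, from 1048 to 442 with LY294002, from 175 to 31 with insulin and from 1199 to 608 with both, and those higher from 705 to 248, 821 to 305, 160 to 41 and 1114 to 446.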

Other observations

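The genes beside the members on the chromosome were looked up in the RefSeq gene order and chosen after their values were seen. FGB, FGA and FGG stand next to each other on chromosome 4, between PLRG1, a splicing factor gene, and LRAT, a retinol acyltransferase gene. PLRG1 read 8.17 in the control and 9.04, 9.12, 8.56 and 9.74 with IWP2, LY294002, insulin and both inhibitors, so its differences ran opposite to those of the fibrinogen chains on the inhibitor arrays. LRAT was not detected on any array. On chromosome 13, F7 and F10 are followed by F10-AS2, not analysed here, and then by PROZ, the gene of protein Z, a vitamin K protein that helps to inhibit activated F10. PROZ read 5.68 in the control and 6.02 with insulin, and was not detected on the inhibitor arrays. MCF2L, on the other side of F7, was detected with IWP2 (5.70) and with both inhibitors (5.57) only.

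Of the 4 detected genes for proteins that share the fibrinogen fold, 2 were at least 2-fold lower with IWP2, 2 with LY294002, 0 with insulin and 2 with both, and 0 were higher. Over all genes 7.75%, 10.5%, 1.77% and 11.9% were lower. FGL1, a liver-made relative, stayed between 6.66 and 7.16 on all 5 arrays. MFAP4, an elastic fibre protein, differed by -2.64, -1.91 and -3.23 with IWP2, LY294002 and both. FCN3, a lectin of complement, differed by -1.82 with IWP2 and was at least 3.71-fold lower with LY294002 and 2.84-fold lower with both. GP1BA, listed as a platelet gene, was detected on all 5 arrays at 6.74 to 7.51, while the other platelet genes on the array apart from PPBP were not detected.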
